A study of Mus musculus with 32 samples.

Results

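Arrdc2, Map3k6, Galnt15, Fmo2 and Adipor2 are 5 of the 40392 genes measured by RNA-seq in mouse basolateral amygdala. They were chosen by their measured levels in adolescent mice at day 1, each of which was higher after social defeat than in controls. That contrast therefore describes them and tests nothing about them. The question was whether they behave like targets of stress steroids in the libraries that the choice did not use. Polyadenylated RNA was sequenced in 32 libraries, 4 for each combination of day (1 or 21), treatment and age class, the last being adolescent or adult. The treated mice underwent social defeat, a stress that consists of attack by an aggressive mouse, and the others served as controls. The design text names mice of 6 and 9 weeks without tying those ages to the age classes, and the labels give no strain, sex, genotype or event from which the days count. Whether each library came from its own animal is not said, and p-values cover only the spread among these samples, which may be technical.

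Glucocorticoids, the steroid hormones that the adrenal cortex releases under stress, act through the glucocorticoid receptor Nr3c1 and the mineralocorticoid receptor Nr3c2. The hormone-bound receptor binds palindromic response elements in DNA and raises the transcription of genes such as Fkbp5, a co-chaperone that feeds back on the receptor, Tsc22d3, an anti-inflammatory leucine zipper protein, and Sgk1, a kinase that regulates ion channels and transporters. In the amygdala these receptors are known for a part in how stress alters fear and emotional learning. The 5 genes have unlike products. Arrdc2 encodes an alpha-arrestin, a family of adaptors that direct membrane proteins to ubiquitin ligases and endosomes. Map3k6 encodes a stress-activated kinase at the top of a MAP kinase cascade. Galnt15 belongs to the enzymes that start mucin-type O-glycosylation of proteins, Fmo2 encodes a flavin-containing monooxygenase that oxidises nitrogen and sulphur in foreign compounds, and Adipor2 encodes a receptor for the fat-derived hormone adiponectin.

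To show what letters lie before these genes, 300-base promoters (250 bases before to 50 bases after a start site) were taken from RefSeq on build GRCm38.p6, which gave 6 promoters for the 5 genes. Both strands were searched for the full glucocorticoid response element (AGAACA, any 3 bases, TGTTCT), a relaxed form (GNACA, any 3 bases, TGTNC), the hexamer AGAACA that forms a single arm of the element, the clock motifs CACGTG and TTATGTAA, and the cyclic AMP motif TGACGTCA. The relaxed form was found once, in Map3k6, 181 to 169 bases before the start site, as GCACAGGCTGTTC. This form occurs in 156 of all 32851 promoters (0.475%). The hexamer was found once, in the second Fmo2 promoter, 125 to 120 bases before the start site, and it occurs in 6233 promoters (19.0%). Each arm of the full element holds this hexamer, so those matches overlap, and the full element itself occurs in 3 promoters (0.00913%). No other searched letters were in the windows of the 5 genes. Among 29 known glucocorticoid targets, 24 had a promoter in the table, and the full element was in 1, the relaxed form in 2 and the hexamer in 4 of them. The promoters of Map3k6 (chr4:133240568-133240867, plus strand) and of Fmo2 (chr1:162898444-162898743, minus strand) are shown because they are those with a match, marked in capitals.
Map3k6 promoter: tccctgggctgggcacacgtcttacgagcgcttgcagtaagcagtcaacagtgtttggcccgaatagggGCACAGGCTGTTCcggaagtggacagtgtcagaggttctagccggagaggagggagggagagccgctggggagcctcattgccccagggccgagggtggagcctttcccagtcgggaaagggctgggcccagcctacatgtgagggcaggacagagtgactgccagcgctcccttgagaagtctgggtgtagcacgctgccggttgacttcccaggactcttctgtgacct
Fmo2 second promoter: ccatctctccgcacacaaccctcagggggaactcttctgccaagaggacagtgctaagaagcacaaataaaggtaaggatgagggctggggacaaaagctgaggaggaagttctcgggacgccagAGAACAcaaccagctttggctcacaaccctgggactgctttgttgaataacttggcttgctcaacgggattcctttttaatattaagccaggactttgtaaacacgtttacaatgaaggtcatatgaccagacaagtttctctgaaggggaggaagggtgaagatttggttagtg

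In the deposited table, whose genome build is not stated, Arrdc2 lies at chr8:71287773-71292364 (minus strand), Map3k6 at chr4:132968129-132980240 (plus strand), Galnt15 at chr14:31750946-31784154 (plus strand), Fmo2 at chr1:162701886-162726295 (minus strand) and Adipor2 at chr6:119330111-119394665 (minus strand). All 5 are listed with protein-coding transcripts. Adipor2 overlaps the opposite-strand noncoding gene Gm56986 by 2420 bases, and whether counting used strand is not stated, so its reads are less certain than those of the other 4. Per length of gene model, in FPKM (fragments per kilobase, scaled to depth), Adipor2 was the most abundant, with group means from 7.55 to 11.2, and Arrdc2 followed, with 3.68 to 7.91. Map3k6 lay at 0.555 to 1.12, Galnt15 at 0.284 to 0.826 and Fmo2 at 0.0690 to 0.192 FPKM. Fmo2 rested on 20 to 102 reads a library, so its values carry the most counting error, while Adipor2 had 2528 to 5959 reads.

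Library totals ran from 53885799 to 82208892 counts, and 23778 genes were tested. The 10 neuron markers were all detected, with a summed level of 6110 to 7270 CPM (read counts brought to the same total in every library) over the 32 libraries. Ttr, which encodes transthyretin and marks the choroid plexus, was above 100 CPM in 11 libraries. These were all 4 of adolescent defeat day 1, 2 of adult defeat day 1, and 1 in each control group and in adolescent defeat day 21. In bulk tissue, fewer cells of a type and less RNA per cell cannot be told apart.

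The values that chose the genes were these. Arrdc2 was at 14.0, 13.2, 15.8 and 18.6 CPM in the adolescent day 1 controls and at 24.8, 22.0, 29.8 and 35.0 CPM in the defeat libraries, a log2 change of 0.855 ± 0.14 (SE). Galnt15 was at 1.94, 2.47, 1.56 and 1.99 CPM in controls and at 5.11, 3.44, 6.03 and 8.28 CPM after defeat (1.52 ± 0.29). In both genes every defeat library lay above every control library. Map3k6 was at 2.68, 3.03, 2.49 and 2.81 CPM in controls and at 6.55, 4.10, 4.73 and 6.59 CPM after defeat (0.995 ± 0.19). Fmo2 was at 0.368, 0.563, 0.345 and 0.403 CPM in controls and at 1.26, 0.853, 1.12 and 1.49 CPM after defeat (1.49 ± 0.28). Adipor2, the most abundant of the 5, showed the smallest log2 change, 0.47 ± 0.085, from 51.6, 47.2, 52.8 and 52.0 CPM to 68.2, 58.2, 68.9 and 86.8 CPM. Defeat libraries lay above all controls in these 3 genes too, as they did in 2.64% of all tested genes, and the choice of genes makes this likely. In that contrast 0.0547% of tested genes (13) had an adjusted p under 0.05 in edgeR, and nothing about the 5 genes is read from it. The count was not stable. It fell to 0 when choroid plexus level entered the model, when low-count genes were kept, or when other groups were left out. It was 6 and 5 with limma on log2 FPKM, 15 with upper quartile scaling, 19 with the replicate block and 81 with DESeq2. Omitting single libraries gave 0 to 37. As a description of where the threshold fell, the nearest genes on its inner side were Tef (log2 change 0.22) and H2-D1 (0.53), and the nearest on its outer side H2-K1 (0.49), Spata13 (0.46) and Klf15 (0.50).

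Other groups of genes are given for the same adolescent day 1 contrast, as a description. Their lists were chosen with earlier results of these data known. Their counts in the contrast that chose the 5 genes are therefore not independent evidence on those genes. Of the 29 glucocorticoid targets, 0 passed in edgeR at an adjusted p under 0.05 and 20 were under 0.05 before adjustment. A log2 change above 0 was seen in 28, with a median of 0.38 against -0.003 over all tested genes. Sgk1 was at 1.17 ± 0.29, Tsc22d3 at 0.52 ± 0.12 and Fkbp5 at 0.40 ± 0.11 (adjusted p = 0.127, 0.105 and 0.212 in edgeR), while the receptor genes Nr3c1 (-0.03 ± 0.06) and Nr3c2 (-0.11 ± 0.13) lay near 0. In the same libraries all 14 choroid plexus markers were above 0, with a median of 1.74 and a summed level of 1560 to 2110 CPM after defeat against 200.3 to 1810 CPM in controls. All 12 endothelial markers (median 0.40) and all 5 tested blood markers (median 0.80) were above 0 as well. Their summed levels were 343 to 445 CPM against 265 to 313 CPM for endothelial markers and 139 to 279 CPM against 92.3 to 161 CPM for blood markers. Mural cell markers were above 0 in 7 of 8 (median 0.32). In edgeR 0 markers of these 4 cell types passed, while before adjustment 1 choroid plexus, 8 endothelial, 5 blood and 4 mural cell markers were under 0.05. The 10 meningeal fibroblast markers had a summed level of 344 to 403 CPM after defeat against 155 to 256 CPM in controls. Their mean log2 CPM was 2.57 against 2.35. Of that list Ptgds passed in edgeR, at 0.90 ± 0.17 (adjusted p = 0.0355). Immediate early genes, which neuronal activity induces, lay the other way, with 0 of 20 above 0 (median -0.27), 0 called in edgeR and 9 under 0.05 before adjustment. Of 18 clock genes 2 rose in edgeR (median 0.20). The part of these cells in the levels of the 5 genes was not tested in this contrast. Alternatives, among them a fit with the choroid plexus score, gave log2 changes of 0.697 to 0.959 for Arrdc2 and 0.419 to 1.11 for Map3k6. They gave 1.29 to 1.70 for Galnt15, 1.35 to 1.66 for Fmo2 and 0.355 to 0.552 for Adipor2, as a description. Slopes on cell type markers outside these groups are given below.

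**Figure D1:**
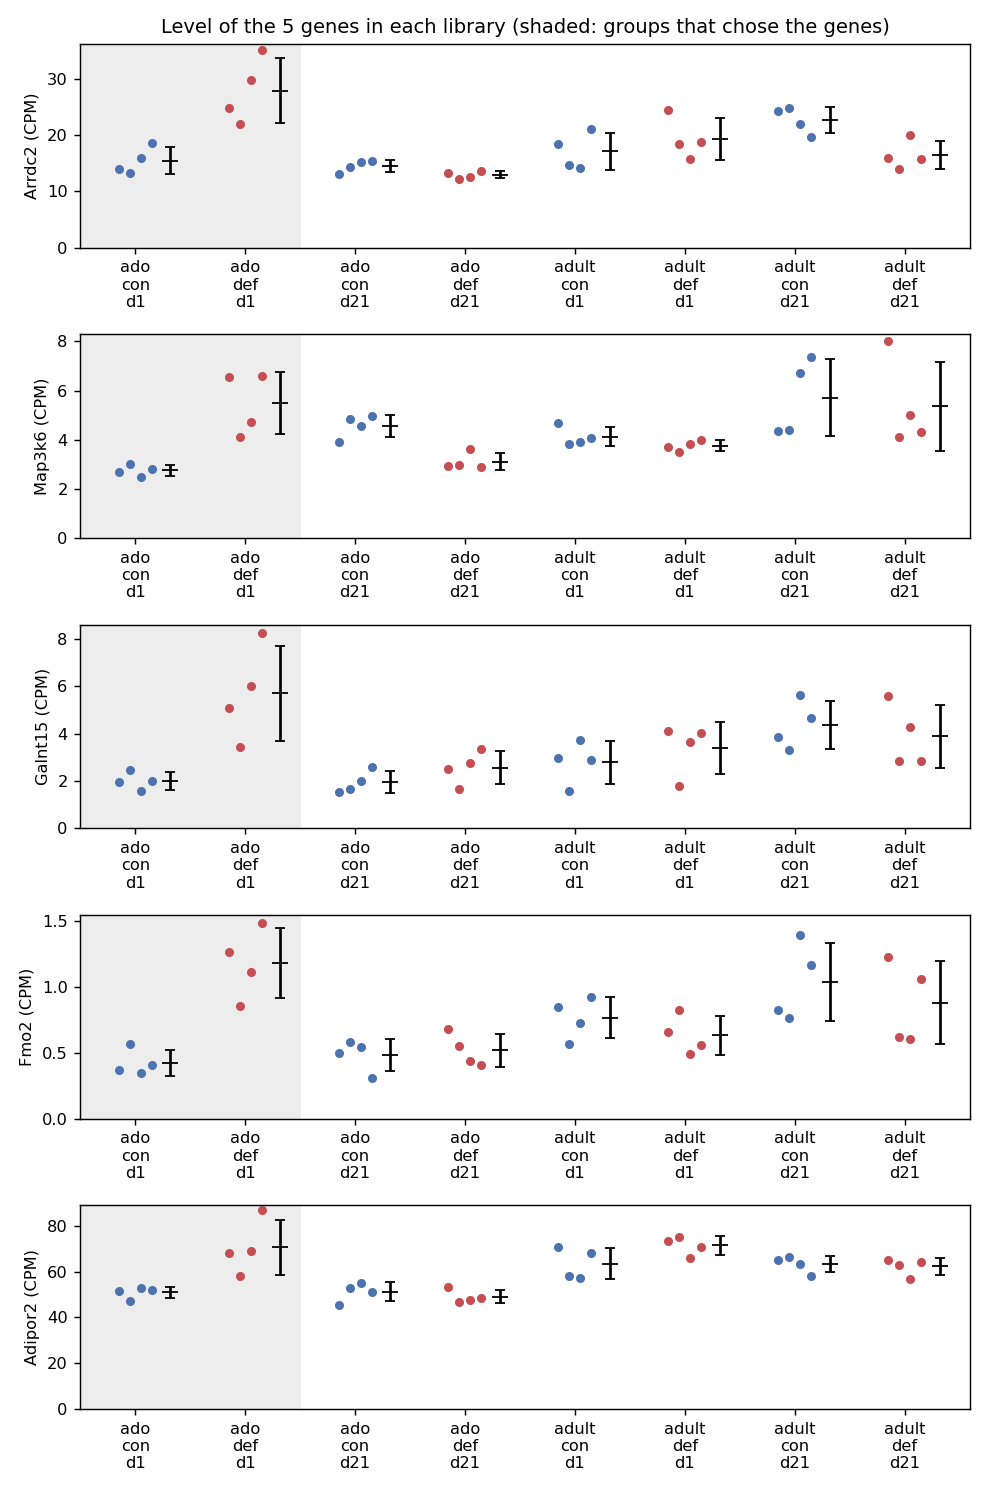
Level in CPM (vertical axes, linear from 0) of the 5 genes in each of the 32 libraries (points) by group (horizontal axis: ado, adolescent; con, control; def, defeat; d, day), with mean and SD over 4 libraries beside them. Adolescent defeat day 1 stands above its controls in the shaded groups that chose the genes. The adolescent means at day 21 lie below every adult mean for Arrdc2, Galnt15, Fmo2 and Adipor2, but not for Map3k6.

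The first comparison that the choice did not use asked whether the genes differed after defeat in adult mice at day 1. In edgeR's quasi-likelihood test 0 of 5 passed at an adjusted p under 0.05, where 0.353% of all tested genes passed. Without adjustment 0 of 5 fell under 0.05, and DESeq2, which gave Fmo2 no adjusted p, called 0. Arrdc2 was at 18.5, 14.7, 14.1 and 21.1 CPM in adult day 1 controls and at 24.5, 18.5, 15.7 and 18.7 CPM after defeat. A single defeat library lay above all controls, and the log2 change was 0.18 ± 0.14 (adjusted p = 0.78, edgeR's quasi-likelihood test). Adipor2 was at 70.5, 58.1, 57.3 and 68.0 CPM in controls and at 73.4, 75.2, 66.0 and 70.9 CPM after defeat. Here 3 of 4 defeat libraries lay above all controls, with a log2 change of 0.17 ± 0.085 (unadjusted p = 0.0553, adjusted p = 0.538 in edgeR). Galnt15 had a log2 change of 0.29 ± 0.29, Map3k6 of -0.13 ± 0.19 and Fmo2 of -0.27 ± 0.28, with groups that overlapped in all 3. An alternative chosen after seeing the data left out the libraries above 100 CPM of Ttr, which were 2 of 4 defeat libraries and 1 of 4 controls. Arrdc2 was then at 0.37 (unadjusted p = 0.0467 in edgeR), Galnt15 at 0.58 (0.101) and Adipor2 at 0.24 (0.00726). Adjusted p was 0.667, 0.761 and 0.483 in edgeR, with 0 of 5 called.

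In these adult day 1 libraries the glucocorticoid targets had a median log2 change of -0.05, against -0.004 over all tested genes, and 14 of 29 were above 0. The 1 target that passed was Per1, a clock gene that both steroids and neuronal activity induce, which rose by 0.72 ± 0.11 (adjusted p = 0.0012 in edgeR). Immediate early genes rose in 6 of 20 (17 above 0, median 0.65) and clock genes in 8 of 18 (15 above 0, median 0.21) in the same test, and none of either list fell. Summed levels were 1810 to 2120 CPM after defeat against 1230 to 1440 CPM in controls for immediate early genes and 1550 to 1660 CPM against 1330 to 1390 CPM for clock genes. Sgk1 was at 0.37 ± 0.28, Tsc22d3 at -0.06 ± 0.12 and Fkbp5 at -0.20 ± 0.11, all short of the threshold. Choroid plexus markers were above 0 in 14 of 14 (median 0.59) here too, with summed levels of 237 to 3840 CPM after defeat and 213 to 3960 CPM in controls, so these groups overlapped. The difference in defeat change between the age classes at day 1 holds the contrast that chose the genes and is given as values only. It was -0.68 ± 0.20 for Arrdc2, -1.13 ± 0.26 for Map3k6, -1.24 ± 0.41 for Galnt15, -1.76 ± 0.39 for Fmo2 and -0.30 ± 0.12 for Adipor2 (adult minus adolescent, log2).

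At day 21 in adolescents, the question was whether the levels still differed between defeat and control. In edgeR's quasi-likelihood test 0 of 5 genes passed (0.0126% of all tested genes did), and 1 fell under 0.05 without adjustment. DESeq2 called 0 of them. Map3k6 was at 3.92, 4.84, 4.54 and 4.95 CPM in controls and at 2.94, 2.95, 3.61 and 2.87 CPM after defeat. Every defeat library lay below every control library, opposite to day 1. The log2 change was -0.56 ± 0.19 with an unadjusted p of 0.00534 and an adjusted p of 0.588 in edgeR, and 1.94% of all tested genes had 4 defeat libraries below 4 controls. Galnt15 was at 1.55, 1.65, 1.98 and 2.59 CPM in controls and at 2.51, 1.66, 2.77 and 3.35 CPM after defeat (0.41 ± 0.29), with overlap. Arrdc2 was at 13.1, 14.3, 15.2 and 15.3 CPM in controls and at 13.2, 12.2, 12.6 and 13.7 CPM after defeat (-0.16 ± 0.14). Adipor2 (-0.06 ± 0.085) and Fmo2 (0.11 ± 0.29) lay near 0.

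Of the 29 glucocorticoid targets, 5 were above 0 in adolescents at day 21, with a median log2 change of -0.16 against 0.003 over all tested genes. Tsc22d3 was at -0.42 ± 0.12 and Fkbp5 at -0.205 ± 0.11, neither past the threshold (adjusted p = 0.477 and 0.895 in edgeR). For the list, edgeR called 0 genes, with 6 under 0.05 before adjustment, and DESeq2 called 0. The endothelial markers lay above 0 in 11 of 12 (median 0.34) and the mural cell markers in 8 of 8 (median 0.26). Their summed levels were 284 to 374 CPM after defeat against 273 to 334 CPM in controls, and 157 to 187 CPM against 134 to 165 CPM. The part of these cells in the values of the 5 genes was not tested in this comparison.

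At day 21 in adults, edgeR's quasi-likelihood test again passed 0 of 5 genes (0.00841% of all tested genes passed), with 1 under 0.05 before adjustment and 0 called by DESeq2, and all 5 log2 changes were below 0. Arrdc2 was at 24.3, 24.7, 22.0 and 19.6 CPM in controls and at 16.0, 14.0, 19.9 and 15.8 CPM after defeat. In 3 of 4 defeat libraries it lay below all controls, and the fourth lay just above the lowest control. The log2 change was -0.46 ± 0.14 (unadjusted p = 0.00273, adjusted p = 0.45 in edgeR). Galnt15 (-0.17 ± 0.29), Fmo2 (-0.23 ± 0.27), Map3k6 (-0.09 ± 0.18) and Adipor2 (-0.02 ± 0.085) had overlapping groups. Among glucocorticoid targets Sgk1 was at -0.67 ± 0.28 and Fkbp5 at 0.32 ± 0.11, in opposite directions and both short of the threshold (adjusted p = 0.701 and 0.522 in edgeR). In edgeR 0 of 29 passed, with 13 under 0.05 before adjustment, and DESeq2 called 1. The list median was -0.03, with 14 of 29 above 0. Immediate early genes were above 0 in 1 of 20 (median -0.58), and endothelial markers in 2 of 12 (median -0.43).

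**Figure D2:**
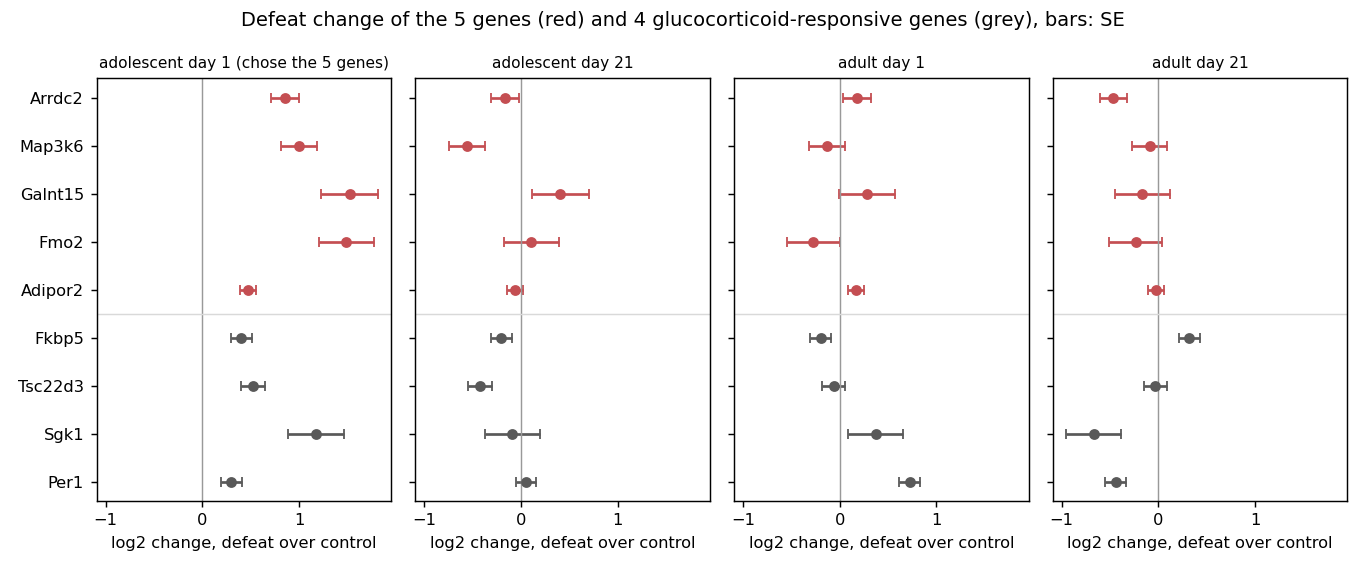
Log2 change after defeat over control (horizontal axes) with SE, for the 5 genes (red) and 4 glucocorticoid-responsive genes (grey), in the 4 defeat comparisons with 4 libraries per group. The red points lie between 0.47 and 1.52 in the panel that chose the genes and between -0.56 and 0.41 in the other panels.

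The change in defeat effect between days in adults, and between age classes at day 21, was tested as interactions. In edgeR 0 of 5 genes passed in adults between days (0.622% of all tested genes passed), with 1 under 0.05 before adjustment. DESeq2, which gave Fmo2 no adjusted p here, called 0. Arrdc2 had the largest of these differences, -0.64 ± 0.20 from day 1 to day 21 (unadjusted p = 0.00328, adjusted p = 0.173 in edgeR's quasi-likelihood test). Its defeat libraries were the higher on average at day 1 and the lower at day 21. Between age classes at day 21 edgeR passed 0 of 5 (0.0252% of all tested genes passed), with 0 under 0.05 before adjustment and 0 called by DESeq2. Map3k6 had a difference of 0.47 ± 0.26 and Galnt15 of -0.57 ± 0.41 there (adult minus adolescent; adjusted p = 0.751 and 0.846 in edgeR).

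Among control libraries at day 21, adult levels were higher than adolescent ones in 4 of the 5 genes, where 6.06% of all tested genes differed, 3.78% higher and 2.29% lower in adults. Arrdc2 was at 13.1, 14.3, 15.2 and 15.3 CPM in adolescent and at 24.3, 24.7, 22.0 and 19.6 CPM in adult controls, a rise of 0.65 ± 0.14 (adjusted p = 0.00465 in edgeR's quasi-likelihood test). Galnt15 was at 1.55, 1.65, 1.98 and 2.59 CPM in adolescent and at 3.86, 3.32, 5.64 and 4.68 CPM in adult controls (1.17 ± 0.29, adjusted p = 0.013 in edgeR). In both genes all 4 adult libraries lay above all 4 adolescent ones, as they did in 7.09% of all tested genes. Fmo2 was at 0.497, 0.581, 0.542 and 0.304 CPM in adolescent and at 0.822, 0.764, 1.39 and 1.16 CPM in adult controls (1.10 ± 0.28, adjusted p = 0.0145 in edgeR). Adipor2 was at 45.4, 53.0, 55.02 and 51.2 CPM in adolescent and at 65.1, 66.5, 63.2 and 58.2 CPM in adult controls (0.31 ± 0.085, adjusted p = 0.0264 in edgeR). These groups did not overlap either. Map3k6 did not pass, at 3.92, 4.84, 4.54 and 4.95 CPM in adolescent and 4.34, 4.401, 6.73 and 7.36 CPM in adult controls, and 2 of 4 adult libraries lay above all adolescent ones (0.32 ± 0.18, adjusted p = 0.359 in edgeR).

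These calls rest on few libraries, while all 5 log2 differences stayed above 0 in every alternative run. Without the libraries above 100 CPM of Ttr, an alternative chosen after seeing the data that leaves 3 controls of each age class, edgeR called 0 of 5 genes. Arrdc2 was then at 0.61 (adjusted p = 0.0536), Galnt15 at 0.93 (0.145), Fmo2 at 0.94 (0.203) and Adipor2 at 0.25 (0.0797), and 393 of all tested genes were called. Without adolescent control day 21 replicate 1, edgeR called 2 of 5, with Galnt15 at an adjusted p of 0.055 and Adipor2 at 0.109. Without adult control day 21 replicate 3, edgeR called 2 of 5, with Galnt15 at an adjusted p of 0.0519 and Fmo2 at 0.0672. Galnt15 was also lost without adolescent control day 21 replicate 2 (adjusted p = 0.0522 in edgeR), Fmo2 without adolescent control day 21 replicate 4 (0.0613), and Adipor2 without adult control day 21 replicate 1 (0.0558) or replicate 2 (0.0756). With all libraries kept, Adipor2 was lost with no filter on low counts (0.0523) and Fmo2 in a fit of only the groups compared (0.0635), which leaves 3 called in each. Over all alternatives the adjusted p ran from 0.00048 to 0.0536 for Arrdc2, from 0.00255 to 0.145 for Galnt15, from 0.00625 to 0.203 for Fmo2 and from 0.0112 to 0.109 for Adipor2. The labels give no batch, so age class and any difference in handling between the age classes cannot be told apart.

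The glucocorticoid targets, a list chosen with earlier results of these data known, lay mostly above 0 in the same adult controls. Of 29 targets, 21 were above 0, with a median log2 difference of 0.43 against -0.01 over all tested genes. In edgeR 12 rose and 0 fell, where 3.78% of all tested genes rose and 2.29% fell. Per1 (0.71 ± 0.11), Sgk1 (1.14 ± 0.29) and Tsc22d3 (0.43 ± 0.12) were among the 12 (adjusted p = 0.000103, 0.014 and 0.0314 in edgeR), while Fkbp5 lay at -0.06 ± 0.11 and Klf9 at 0.10 ± 0.06. Without the libraries above 100 CPM of Ttr the count was 4, and leaving out each library in turn gave 7 to 14, with 7 without adolescent control day 21 replicate 1. Of the 10 steroid receptor and steroid handling genes 1 passed, Fkbp4, a co-chaperone of steroid receptors, at 0.30 ± 0.05 (adjusted p = 0.000272 in edgeR), and Nr3c1 did not (0.17 ± 0.06, adjusted p = 0.109 in edgeR). Immediate early genes moved with this difference as well, with 16 of 20 higher (median 0.91) and a summed level of 2070 to 2480 CPM in adult against 971 to 1390 CPM in adolescent controls. Of 18 clock genes 6 were higher and 1 lower (12 above 0, median 0.11). These lists are not fully separate, since the target list also holds clock or immediate early genes, Per1 among them. Endothelial markers were higher in 3 of 12 (median 0.43), at 344 to 388 CPM against 273 to 334 CPM. The part of these lists in the levels of the 5 genes was not tested in this comparison.

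The same contrast in the defeat libraries at day 21, added after seeing the data, shares no library with the control one. It passed 2 of 5 genes in edgeR, where 3.09% of all tested genes passed, 1.8% higher and 1.29% lower in adults. Map3k6 was at 2.94, 2.95, 3.61 and 2.87 CPM in adolescent and at 8.02, 4.09, 5.03 and 4.30 CPM in adult defeat libraries, a rise of 0.79 ± 0.19 (adjusted p = 0.0137 in edgeR's quasi-likelihood test). Adipor2 was at 53.2, 46.6, 47.6 and 48.5 CPM in adolescent and at 65.2, 62.7, 56.7 and 64.3 CPM in adult defeat libraries, a rise of 0.345 ± 0.085 (adjusted p = 0.0189 in edgeR). In both genes, and in Arrdc2 (0.345 ± 0.14, adjusted p = 0.218 in edgeR), all 4 adult libraries lay above all 4 adolescent ones, as in 4.89% of all tested genes. Galnt15 (0.60 ± 0.29) and Fmo2 (0.76 ± 0.28) overlapped, with 2 of 4 adult libraries above all adolescent ones in each. Both calls are lost without adult defeat day 21 replicate 1 (Map3k6 at 0.54, adjusted p = 0.103, and Adipor2 at 0.33, adjusted p = 0.0535 in edgeR). That of Adipor2 is lost without adolescent defeat day 21 replicate 2 (adjusted p = 0.0609) or replicate 3 (0.0561). That of Map3k6 is lost without the library above 100 CPM of Ttr (0.0767) and in a fit of only the groups compared (0.082). Of the 29 glucocorticoid targets 10 rose and 0 fell here in edgeR (median 0.465), among them Tsc22d3 (0.82 ± 0.12, adjusted p = 0.000146), Fkbp5 (0.47 ± 0.11, adjusted p = 0.0122) and Klf9 (0.23 ± 0.06, adjusted p = 0.0498). Immediate early genes rose in 7 of 20 (19 above 0, median 0.49), at a summed level of 1410 to 1710 CPM in adult against 935 to 1250 CPM in adolescent defeat libraries. Endothelial markers went the other way, with 2 of 12 lower and a median of -0.415 (250.1 to 432 CPM in adult against 284 to 374 CPM in adolescent defeat libraries).

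**Figure D3:**
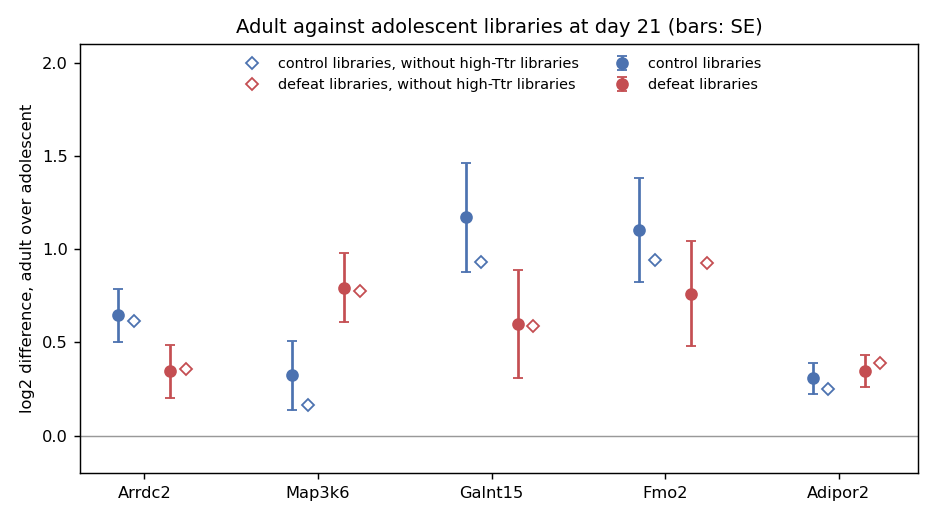
Log2 difference between adult and adolescent libraries at day 21 (vertical axis) for the 5 genes, in control (blue) and defeat (red) libraries, with SE for 4 libraries per group. Open diamonds give the value without the libraries above 100 CPM of Ttr. All points lie above 0, from 0.165 for Map3k6 to 1.17 for Galnt15, both in controls.

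Day and age differences among the other controls complete the levels. In adult controls between day 1 and day 21 edgeR passed 0 of 5 genes (0.858% of all tested genes passed), with 3 under 0.05 before adjustment and 0 called by DESeq2. Arrdc2 was higher at day 21 by 0.405 ± 0.14 (adjusted p = 0.178 in edgeR), Map3k6 by 0.47 ± 0.18 (0.246) and Galnt15 by 0.65 ± 0.29 (0.314), each short of the threshold, and Adipor2 lay at -0.006 ± 0.085. Endothelial markers passed in 7 of 12, all higher (median 0.72; 0.639% of all tested genes were higher), and immediate early genes in 13 of 20 (median 0.85) in the same contrast. Adult day 1 controls against adolescent day 1 controls hold a group that chose the genes and are given as values only. The log2 difference there was 0.15 ± 0.14 for Arrdc2, 0.58 ± 0.19 for Map3k6, 0.49 ± 0.29 for Galnt15, 0.86 ± 0.28 for Fmo2 and 0.32 ± 0.085 for Adipor2. Adolescent controls at day 21 against day 1 hold that group too, and their values were not tested either. Map3k6 was higher at day 21 by 0.73 ± 0.19, from a mean of 2.75 to 4.56 CPM. Arrdc2 lay at -0.09 ± 0.14, Galnt15 at -0.03 ± 0.29, Fmo2 at 0.20 ± 0.29 and Adipor2 at 0.006 ± 0.085.

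Ordered by mean, Adipor2 ran from 49.0 ± 2.89 CPM (SD, n = 4) in adolescent defeat day 21, through 50.9 ± 2.51 and 51.1 ± 4.16 CPM in the adolescent controls, to 62.2 ± 3.80, 63.3 ± 3.61 and 63.5 ± 6.76 CPM in adult defeat day 21 and the adult controls of day 21 and day 1. Adolescent defeat day 1 (70.5 ± 11.9 CPM) and adult defeat day 1 (71.4 ± 4.001 CPM) stood highest. Neighbours in this order differed by less than the larger of their SDs, except at the step from the adolescent controls to adult defeat day 21. Arrdc2 ran from 12.9 ± 0.638 CPM in adolescent defeat day 21 to 22.6 ± 2.35 CPM in adult control day 21, with adolescent defeat day 1 above all at 27.9 ± 5.76 CPM. The adolescent controls (14.5 ± 1.003 and 15.4 ± 2.40 CPM) and the other adult groups (16.4 ± 2.51 to 19.4 ± 3.71 CPM) lay between. Steps between neighbours were smaller than the larger SD, except that from adolescent defeat to adolescent control at day 21, which did not pass the defeat test above. Fmo2 ran from 0.420 ± 0.0983 CPM in adolescent control day 1 to 1.04 ± 0.297 CPM in adult control day 21, below adolescent defeat day 1 at 1.18 ± 0.266 CPM, and Galnt15 from 1.94 ± 0.466 CPM in adolescent control day 21 to 4.37 ± 1.01 CPM in adult control day 21, below adolescent defeat day 1 at 5.71 ± 2.02 CPM. No step between neighbours exceeded the larger SD in either gene. For Map3k6 the highest mean was that of adult control day 21 (5.71 ± 1.56 CPM), close to adolescent defeat day 1 (5.49 ± 1.27 CPM) and adult defeat day 21 (5.36 ± 1.82 CPM).

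The last comparison asked whether the genes were higher in those libraries of a group where glucocorticoid targets were higher. Each library was given a target score, the log2 CPM averaged over the 29 targets, none of which is among the 5 genes, and a slope on it was fitted with group means over the 24 libraries outside the adolescent day 1 groups. Within groups the score had an SD of 0.17. In edgeR's quasi-likelihood test 0 of 5 slopes passed (0.0168% of all tested genes passed), and 3 had an unadjusted p under 0.05. All 5 slopes were above 0, as were 52% of those of all tested genes, and 4.63% of all tested genes had a slope above 0 with an unadjusted p under 0.05. Galnt15 had a slope of 1.71 ± 0.48 log2 CPM per unit of score (unadjusted p = 0.00156, adjusted p = 0.273 in edgeR), Arrdc2 of 0.73 ± 0.21 (0.00203, adjusted 0.289) and Adipor2 of 0.34 ± 0.12 (0.0104, adjusted 0.382). Map3k6 (0.49 ± 0.36) and Fmo2 (0.62 ± 0.59) had slopes that do not exceed 2 SE.

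Among the 29 targets themselves, which make up the score, 3 passed, namely Lcn2, Tsc22d3 and Klf15, of 4 genes that passed in all. DESeq2 gave an adjusted p for Adipor2 alone (0.103). Without the 2 libraries farthest from the median score, adolescent defeat day 21 replicates 2 and 3, the slopes were 1.65 for Galnt15, 0.76 for Arrdc2 and 0.34 for Adipor2 (adjusted p = 0.424, 0.424 and 0.531 in edgeR). With choroid plexus and endothelial scores in the fit they were 1.41, 0.79 and 0.33, and those of Map3k6 and Fmo2 fell to 0.23 for each. Leaving out each library in turn gave 1.48 to 1.996 for Galnt15, 0.61 to 0.86 for Arrdc2 and 0.29 to 0.415 for Adipor2, with 0 calls. Over all alternatives the ranges were wider, at 1.03 to 2.55, 0.61 to 1.07 and 0.29 to 0.49, again with 0 calls. These included scores without clock and immediate early genes or without the 2 targets of smallest p. They also included all 32 libraries, with the groups that chose the genes. With the replicate block 0 of all tested genes passed. Slopes on 12 other scores (clock, immediate early and 10 sets of cell type markers) were added after seeing the data, for 60 further slopes. In edgeR 1 of these passed, where 2.01% of the slopes of all tested genes on the same 12 scores passed. It was that of Arrdc2 on neuron markers, at -1.70 ± 0.41 (adjusted p = 0.0218), a score on which 3.79% of all tested genes passed. Nearest below the threshold was the slope of Galnt15 on microglia markers, at 1.85 ± 0.62 (adjusted p = 0.0789 in edgeR). On that score 6.46% of all tested genes passed. Galnt15 and Map3k6 had slopes on endothelial markers of 1.10 ± 0.35 and 0.65 ± 0.22, short of the threshold (adjusted p = 0.123 and 0.139 in edgeR). On choroid plexus markers the slopes ran from -0.023 ± 0.048 for Galnt15 to 0.063 ± 0.047 for Fmo2 (adjusted p = 0.994 and 0.959 in edgeR). The part of cell make-up in the slopes on the target score was not tested further.

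**Figure D4:**
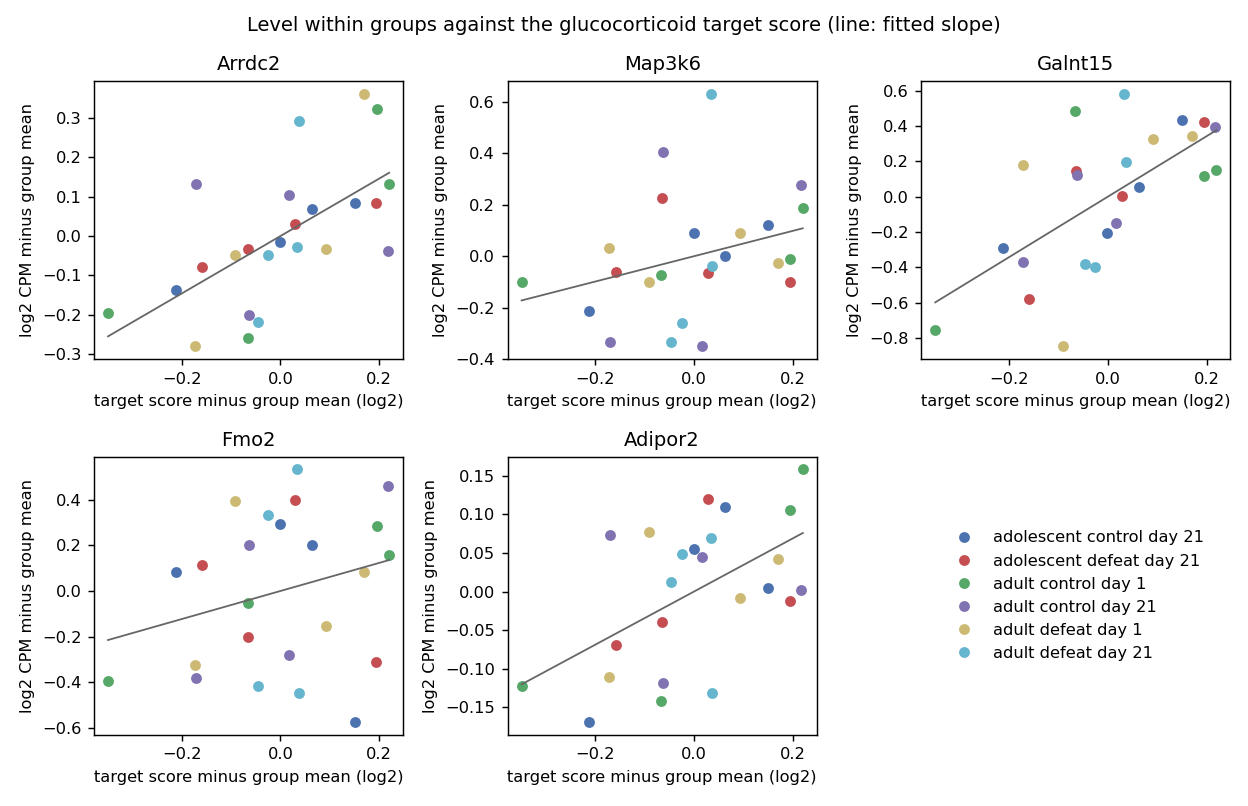
Log2 CPM of each gene minus its group mean (vertical axes) against the glucocorticoid target score minus its group mean (horizontal axes, log2), for the 24 libraries outside the adolescent day 1 groups, with fitted slopes as lines. Lines rise in all 5 panels, most steeply for Galnt15 (slope 1.71), with wide scatter for Map3k6 and Fmo2.

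Over those 24 libraries, which share depth scaling and span 6 groups, each gene was correlated with 15949 genes of at least 1 CPM on average, as a description. Most like Arrdc2 were Sgk1 (Pearson r = 0.909), Plekhf1 (0.887) and Dmpk (0.863), and of these Sgk1 and Plekhf1 are on the glucocorticoid target list. Most like Map3k6 were Dio2 (0.882), Xdh (0.844), then Cdkn1a, which is on that list too. Most like Galnt15 were Mllt6 (0.848), Sergef (0.843) and Pdlim7 (0.84), most like Adipor2 were Mat2a (0.911), Rhpn2 (0.907) and Ralgds (0.894), and most like Fmo2 were the mitochondrial tRNA gene mt-Ty (0.815), Ugp2 (0.796) and Numa1 (0.779). The median r with the 29 targets was 0.46 for Arrdc2, 0.50 for Galnt15, 0.35 for Map3k6, 0.52 for Adipor2 and 0.38 for Fmo2, where the median over all genes was between -0.004 and 0.01. With group means removed these medians were 0.41, 0.38, 0.16, 0.31 and 0.20 in the same order. Between the 5 genes, with group means removed, r was 0.57 for Galnt15 with Map3k6 and 0.51 for Arrdc2 with Adipor2, but -0.05 for Arrdc2 with Map3k6 and 0.005 for Galnt15 with Adipor2.

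Relatives of the 5 genes were read in the same contrasts. In adult against adolescent controls at day 21, of 4 tested alpha-arrestins other than Arrdc2, 1 rose, Arrdc3, by 0.51 ± 0.13 (adjusted p = 0.0144 in edgeR). Of 16 other GalNAc transferases 2 rose, Galnt9 (0.425 ± 0.11) and Galnt10 (0.24 ± 0.07), and 1 fell, Galnt1 (-0.24 ± 0.05), with adjusted p of 0.0148, 0.0414 and 0.00327 in edgeR. Of the other genes of adiponectin signalling, Adipor1, the second adiponectin receptor, lay at 0.07 ± 0.05 and Appl1, an adaptor of both receptors, at 0.08 ± 0.05, neither past the threshold. The ASK kinase Map3k5, the closest relative of Map3k6, lay at 0.13 ± 0.07 (adjusted p = 0.362 in edgeR), and Fmo5 and Fmo1 at -0.31 ± 0.17 and -0.15 ± 0.11. After defeat in adolescents at day 1, given as values only, Txnip changed by 0.43 ± 0.18, Arrdc3 by 0.25 ± 0.13, Map3k5 by 0.02 ± 0.07, Galnt10 by 0.19 ± 0.07, Fmo5 by 0.12 ± 0.17 and Appl1 by -0.13 ± 0.05.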

How the data were processed

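Raw read counts and FPKM values for 40392 mouse Ensembl genes in 32 libraries were deposited in a table of the whole series, and all its per-library columns were matched to samples by name. Per the submitters' processing notes, cutadapt 1.9, HISAT2 2.0.4, StringTie 1.3.4d and edgeR (no version) were used, and hg38, a human build, is named although the gene identifiers are mouse ones, so the build of the table is treated as not stated. FPKM was calculated by the authors. Strand use is not given in the labels or notes. RNA was selected with oligo(dT) beads, per the labels' protocols.

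The counts went into edgeR 4.0.16 (R 4.3.3): TMM scaling, the default expression filter (23778 genes with 99.975% of counts; all 5 genes passed), a single fit of 8 group means (24 residual degrees of freedom), quasi-likelihood F tests, 2-sided, with Benjamini-Hochberg adjustment over all tested genes and a threshold of 0.05. SE is the absolute log2 change over the square root of F. A slope on the glucocorticoid target score (mean log2 CPM) was fitted with 6 group means over 24 libraries. Alternatives used DESeq2 1.42.0, limma 3.58.1 on log2 FPKM with a pseudocount of 0.1 or 1, for genes that reach 1 FPKM in 4 or more libraries (which leaves out Galnt15 and Fmo2), upper quartile scaling, no filter, a choroid plexus covariate, a replicate block, a fit restricted to the groups compared, and each library left out. Scripts were tested on simulated data. The 5 genes and all gene lists were chosen with earlier results of these data known. Besides the 5 genes, named genes were Fkbp5, Tsc22d3, Sgk1, Klf9, Per1, Nr3c1, Nr3c2 and Ttr, up to 3 genes of a list with the smallest p in a comparison, and the 3 genes most like each of the 5. Galnt15 was matched to RefSeq promoters by its Entrez identifier.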

Additional observations from a re-analysis of the deposited data

Results flagged for a closer look

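In adolescent defeat day 21, Map3k6 had 1 library apart from the others, at 3.61 CPM against 2.87 to 2.95 CPM in the other 3. Such a gap is marked by chance in about 1 of 20 groups of 4.

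The log2 change of Map3k6 after defeat in adolescents had opposite signs at the 2 days. At day 1, the contrast that chose the gene, the log2 change was 0.995 with every defeat library above every control, and at day 21 it was -0.56 with every defeat library below every control, short of the threshold (adjusted p = 0.588 in edgeR). The difference between the 2 changes was not tested, since it holds the groups that chose the gene. The control mean was 2.75 CPM at day 1 and 4.56 CPM at day 21, and the defeat mean 5.49 and 3.09 CPM.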

How the results depend on the processing

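In the 3 defeat comparisons outside the adolescent day 1 groups, the 2 interactions, the adult control day comparison and the slopes, 0 of the 5 genes were called under every alternative run. In adult against adolescent controls at day 21, 4 were called, 2 with limma on log2 FPKM at either pseudocount (0.1 or 1), where Galnt15 and Fmo2 were not tested, 3 with no filter on low counts, 3 in a fit of only the groups compared, 0 without the libraries above 100 CPM of Ttr, and 2 to 4 with a library left out. In the defeat libraries, 2 were called, 1 in a fit of only the groups compared, 1 without the libraries above 100 CPM of Ttr, and 0 to 2 with a library left out. Why calls were lost in these settings was not tested. The log2 change of Adipor2 between days in adult controls turned from -0.006 to 0.007 with a choroid plexus covariate and to 0.052 without the libraries above 100 CPM of Ttr, which also turned Map3k6 in adult defeat at day 21 to 0.001 and Fmo2 in adolescent defeat at day 21 to -0.041. With a library left out, small changes turned sign: Fmo2 in adolescents at day 21 (-0.060 to 0.208), Adipor2 between days in adult controls (-0.043 to 0.053), Map3k6 (-0.352 to 0.054) and Adipor2 (-0.064 to 0.015) after defeat in adults at day 21, and the day by defeat interaction in adults of Map3k6 (-0.224 to 0.183) and Fmo2 (-0.170 to 0.213). Over all genes, DESeq2 called 239 genes against 84 in adults at day 1, and without the libraries above 100 CPM of Ttr 13 were called. Defeat and control libraries of the same age class, day and replicate number did not deviate together (correlation of deviations -0.143 to 0.071). This showed no pairing there but cannot exclude a batch shared by number, and adult and adolescent libraries were not compared so. With the replicate block 4 genes were called in adult against adolescent controls at day 21 and 2 in the defeat libraries. Depth limits Fmo2 most, with 20 to 102 reads a library.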

Other observations

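The receptor gene Nr3c1 had group means of 67.0 ± 5.28 CPM (adolescent control day 21, SD, n = 4) to 82.5 ± 4.23 CPM (adult defeat day 1), and Nr3c2 of 34.1 ± 1.64 CPM (adolescent control day 21) to 39.7 ± 2.92 CPM (adolescent defeat day 21). Neither passed the threshold in any tested comparison of edgeR.

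Fkbp5 and Sgk1, both glucocorticoid-responsive, did not order the groups alike. In adult controls at day 21 Fkbp5 was at 35.9, 38.5, 50.8 and 51.3 CPM and in adult defeat libraries at 53.2, 58.6, 51.5 and 57.0 CPM. All 4 defeat libraries lay above all controls, as in 1.99% of all tested genes. Arrdc2 and Sgk1 had log2 changes of -0.46 and -0.67 in the same libraries. None of these changes passed in edgeR (adjusted p = 0.522 for Fkbp5, 0.45 for Arrdc2 and 0.701 for Sgk1). With group means removed, over 24 libraries, r with Fkbp5 was -0.19 for Arrdc2, 0.17 for Galnt15, 0.09 for Adipor2, 0.31 for Fmo2 and 0.47 for Map3k6, as a description.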
